A study of Mus musculus with 9 samples.

Results

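The 10 genes described here encode scaffold proteins of the Z-disc and the thin filament of striated muscle. They are the calsarcins Myoz1, Myoz2 and Myoz3, the Z-disc proteins Myot (myotilin), Tcap (telethonin) and Ldb3 (also called Cypher or ZASP), the actin-binding proteins Neb (nebulin) and Nebl (nebulette), and the Xin repeat proteins Xirp1 and Xirp2. Members were chosen by gene name, and they make up 10 of the 24537 gene names and 17 of the 35745 RefSeq transcripts listed for the comparison of heart with quadriceps. All 17 transcripts passed the filter on low counts (more than 5 counts in at least 2 of the 6 libraries), as 24280 of all transcripts did.

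The study sequenced RNA of 9 libraries, 3 from sham heart, 3 from sham quadriceps and 3 from quadriceps after transverse aortic constriction (TAC), which narrows the aortic arch and loads the left ventricle. Male C57Bl/6J wild-type mice had either operation at 8 weeks of age, TAC with a 27 gauge needle as the measure of the constriction, and tissue was taken 12 weeks later. Both groups compared here, heart and quadriceps, came from sham-operated mice with no transgene, so both carry the sham operation. The 587 secreted-protein genes read for the TAC libraries hold 0 of the 10 genes, and TAC quadriceps was not analysed here. Summed counts reached 37057358, 38382751 and 33102826 for heart and 32651317, 32989108 and 23383452 for quadriceps, where a read that overlaps several transcripts of a gene is counted on each. The labels do not say whether a heart and a quadriceps library of the same number came from the same mouse, nor that each library is a separate mouse, so p-values measure the spread between these libraries.

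In a sarcomere, the Z-disc anchors the barbed ends of actin filaments from both neighbouring sarcomeres by means of alpha-actinin. Calsarcins, myotilin, telethonin and Ldb3 bind alpha-actinin, filamin or titin there and tie the lattice to signalling proteins such as calcineurin. Nebulin runs along the thin filament of skeletal muscle and takes part in setting its length, while nebulette is its short relative, known best from heart. Xin repeat proteins bind actin at the intercalated disc of heart muscle and at the muscle-tendon junction of skeletal muscle. Mutations in several of these genes are known causes of cardiomyopathy or of nemaline and myofibrillar myopathy.

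Ldb3 is listed with 7 transcripts that differ in coding exons, and these exons are described first, because the counts on them differ between heart and quadriceps. In 3 transcripts (NM_011918, NM_001039071 and NM_001039076) an exon of 359 bases is present at chr14:34576986-34577344, of which the first 260 are printed. The other 4 (NM_001039072 to NM_001039075) hold in its place exons of 23 and 204 bases. A 15-base exon and a 186-base exon, the latter at chr14:34555343-34555528, are each present in some transcripts. All lie on the minus strand of GRCm38 (mm10) within the coding sequence. The exons of 359 and 186 bases are printed in the lines that follow, where capitals mark the alternative exon and lower case the 20 bases of the adjoining shared exon, 5′ to 3′, with the transcript sequence taken from GENCODE.
359-base exon, first part: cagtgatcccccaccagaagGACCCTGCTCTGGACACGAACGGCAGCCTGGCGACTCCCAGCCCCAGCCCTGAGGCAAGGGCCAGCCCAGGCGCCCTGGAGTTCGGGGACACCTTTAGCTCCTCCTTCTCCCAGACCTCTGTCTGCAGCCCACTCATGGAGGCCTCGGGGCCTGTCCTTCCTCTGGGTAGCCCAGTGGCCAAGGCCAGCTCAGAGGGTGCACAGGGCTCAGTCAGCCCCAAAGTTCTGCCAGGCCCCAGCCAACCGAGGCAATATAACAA
186-base exon: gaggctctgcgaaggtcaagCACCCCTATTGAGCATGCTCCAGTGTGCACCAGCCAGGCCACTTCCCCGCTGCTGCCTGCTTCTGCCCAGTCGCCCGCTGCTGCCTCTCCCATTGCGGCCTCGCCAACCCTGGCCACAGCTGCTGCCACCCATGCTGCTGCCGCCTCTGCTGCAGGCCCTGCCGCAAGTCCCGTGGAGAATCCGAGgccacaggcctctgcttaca

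**Figure D1:**
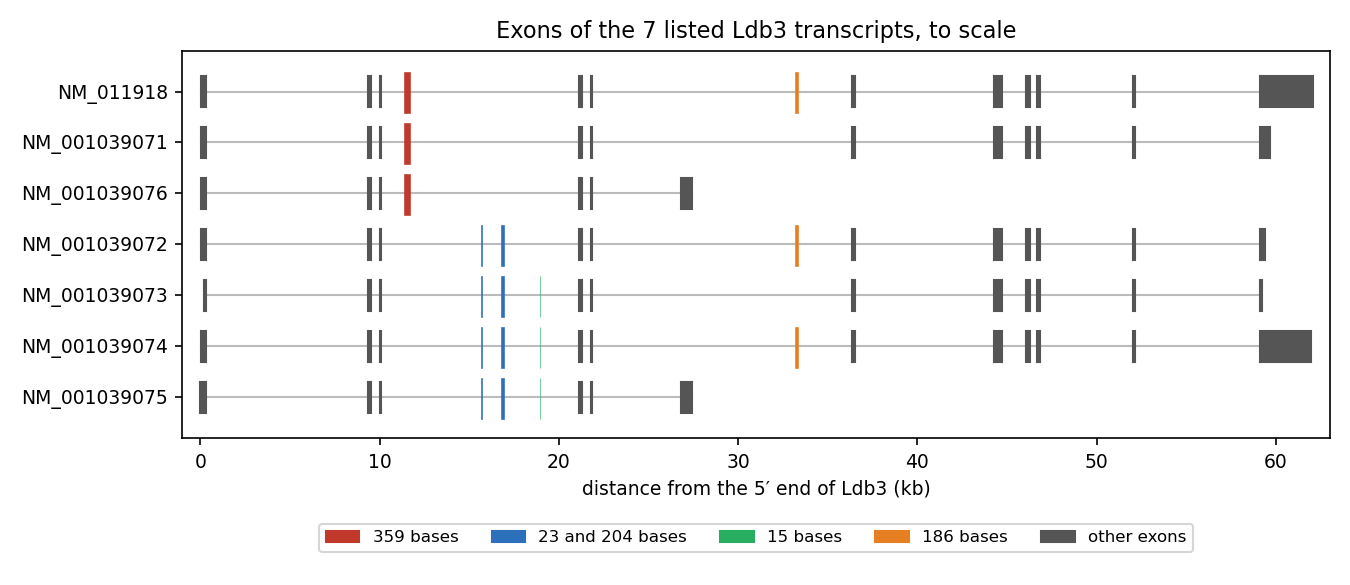
Exon maps of the 7 listed Ldb3 transcripts, drawn to scale against the distance from the 5′ end of the gene in kb. Coloured boxes are the alternative coding exons of 359, 23 and 204, 15 and 186 bases, grey boxes are all other exons, and the outer ends are those of the matched GENCODE transcripts.

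Before the genes were compared, the tissue labels were checked against marker genes. Summed over 6 cardiomyocyte markers, led by Myh6, the level was 30610, 28022 and 28501 CPM (counts scaled by library size and TMM factor, as counts per 1000000) in heart and 9.93, 8.53 and 7.69 CPM in quadriceps. The 6 fast fibre markers, led by Myh4, summed to 2.48, 1.81 and 1.70 CPM in heart and 62242, 81600 and 84458 CPM in quadriceps. Both labels were thus borne out by their defining markers. Of other cell types, endothelial markers summed to 415, 425 and 446 CPM in heart and 127, 126 and 142 CPM in quadriceps. Fibroblast markers summed to 493, 481 and 437 CPM in heart and 453, 335 and 348 CPM in quadriceps. The satellite cell markers Pax7 and Myf5 were at 0 counts in every heart library, and in quadriceps the pair summed to 1.88, 2.38 and 1.75 CPM. Smooth muscle markers summed to 97.3, 87.7 and 110.5 CPM in heart and 67.9, 64.0 and 84.9 CPM in quadriceps. Adipocyte markers, led by Fabp4, were uneven in quadriceps, with sums of 444, 222 and 186 CPM against 234, 285 and 305 CPM in heart, and Adipoq alone had 1183, 425 and 94 counts in quadriceps. Schwann cell markers summed to 3.30, 2.50 and 2.14 CPM in heart and 18.5, 19.4 and 18.9 CPM in quadriceps, and erythroid genes to 143, 160 and 134 CPM in heart and 48.4, 38.7 and 46.7 CPM in quadriceps. Myl7, the atrial myosin light chain, had 2075, 164 and 3 counts in the heart libraries. The part of these unequal markers in the results was not tested. In bulk tissue, fewer cells of a type and less RNA per cell cannot be told apart.

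Between the sham tissues, 7 of the 10 genes were higher in quadriceps and 2 were lower (adjusted p under 0.05, quasi-likelihood test of edgeR, with p-values adjusted by Benjamini-Hochberg across every transcript tested, each gene represented by its transcript with the highest mean count). Of all tested transcripts 32.2% were higher and 34.4% were lower by the same rule, so being called is in itself no rarity in this comparison of tissues. By the study's criterion for higher expression in quadriceps, an unadjusted p under 0.05 and a log2 fold change over 2, 5 genes were higher (Myoz1, Myoz3, Myot, Tcap and Neb), against 7.00% of all transcripts. With the same limit turned to the other side, under -2, 2 genes were lower (Myoz2 and Nebl), against 8.64%. The 3 libraries of one tissue lay wholly above those of the other for 7 genes in quadriceps and 2 in heart, where 34.2% and 38.3% of all transcripts did so. Xirp1 overlapped between the tissues in these scaled counts. The median log2 fold change was 1.97 over the 10 genes and -0.06 over all tested transcripts. Scaling by library totals in place of TMM factors moved the latter to -0.80, with 13.3% of transcripts then higher and 62.6% lower, and the 10 genes split into 6 higher and 2 lower. Single log2 fold changes moved down with it, to 13.07 for Myoz1, 7.49 for Neb, 4.10 for Myot, -1.22 for Xirp1, -3.57 for Myoz2 and -9.84 for Nebl, while Tcap, Ldb3 and Xirp2 are given with their results.

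**Figure D2:**
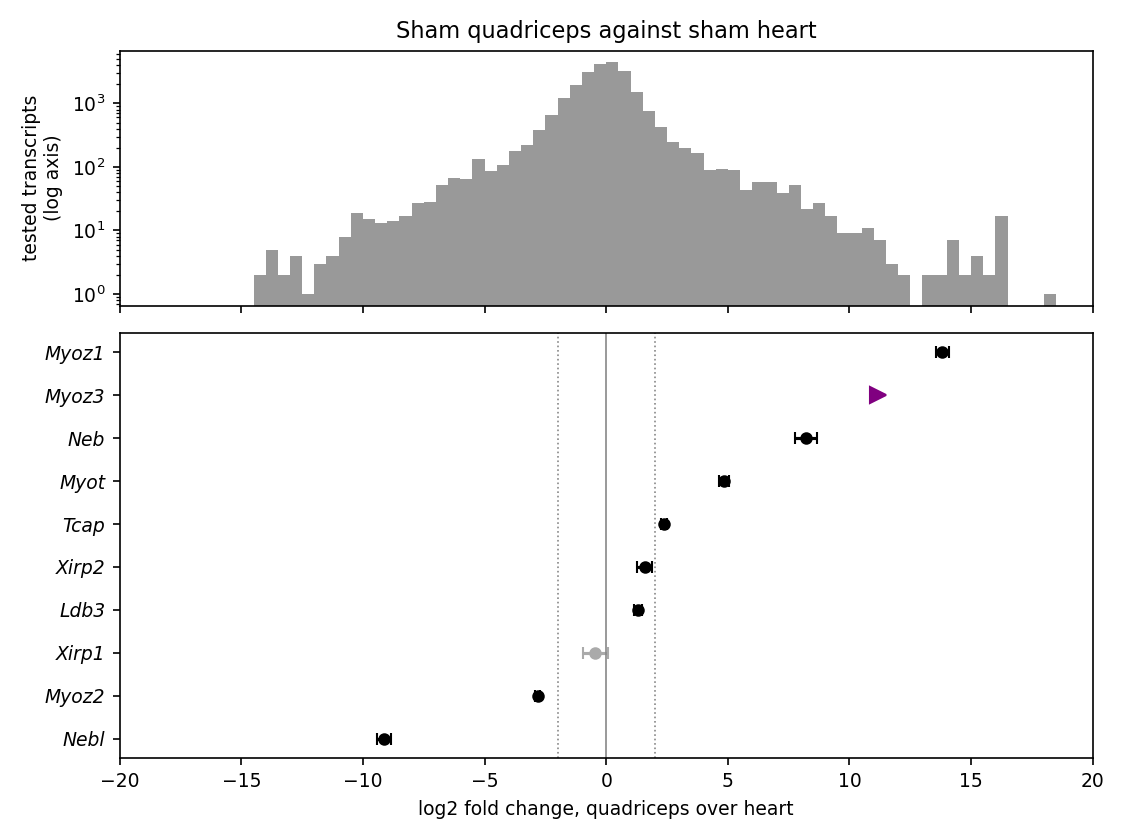
Upper panel, number of tested transcripts (log axis) by log2 fold change of sham quadriceps over sham heart. Lower panel, the 10 genes on the same axis, with points and bars for the log2 fold change and its SE (n = 3 libraries per tissue), black for an adjusted p under 0.05, grey for Xirp1, and a triangle for the lower bound of Myoz3. Dotted lines stand at -2 and 2, and Myoz2 and Nebl lie left of the first.

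The calsarcins, which bind alpha-actinin and calcineurin, divided between the tissues. Myoz1 (calsarcin-2, NM_021508), the form known from fast fibres, drew 2, 3 and 5 reads in heart, against 25516, 29809 and 18741 reads in quadriceps. Heart thus held 10 counts in all against 74066, a ratio of 15163 after scaling, with a 95% interval of 8245 to 31621 that covers counting error only (adjusted p = 1.78e-09, edgeR). Myoz3 (calsarcin-3, NM_133363) had 0 counts in every heart library and 3147, 4027 and 2922 in quadriceps. Against a floor of 3 counts per library, it was at least 2334-fold higher in quadriceps (adjusted p = 6.93e-08, edgeR). Myoz2 (calsarcin-1, NM_021503), the form known from heart and slow fibres, went the other way, with 23620, 24660 and 18781 reads in heart, against 1832, 1575 and 1213 reads in quadriceps. Its level was 474 ± 32.3 CPM in heart and 67.2 ± 1.36 CPM in quadriceps (SD, n = 3), a log2 fold change of -2.82 (SE 0.11, adjusted p = 4.26e-08, edgeR). No library of one tissue reached the range of the other for any of these genes.

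Per transcript length, the calsarcin pool of heart was Myoz2 almost alone. In RPKM (counts per kilobase and per 1000000 counts, as deposited), Myoz2 made up 99.99% ± 0.0085 of the sum of the calsarcins in heart (SD, n = 3), and Myoz1 0.014% ± 0.0085. In quadriceps Myoz1 made up 89.0% ± 0.893, Myoz2 6.31% ± 0.910 and Myoz3 4.67% ± 0.540. The pool itself summed to 557, 561 and 496 RPKM in heart against 685, 780 and 705 RPKM in quadriceps, so that all quadriceps libraries lay above all heart libraries on this scale. The 4 slow fibre markers, led by Myh7, summed to 2322, 2412 and 2167 CPM in heart and 394, 602 and 530 CPM in quadriceps. Of them Tnni1 and Tnnt1 were higher in quadriceps (log2 fold change 7.66 and 3.51), and Tnnc1 and Myh7, which cardiomyocytes express as well, were lower (-4.61 and -2.03). Tnni1 had 710, 753 and 465 counts in quadriceps.

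**Figure D3:**
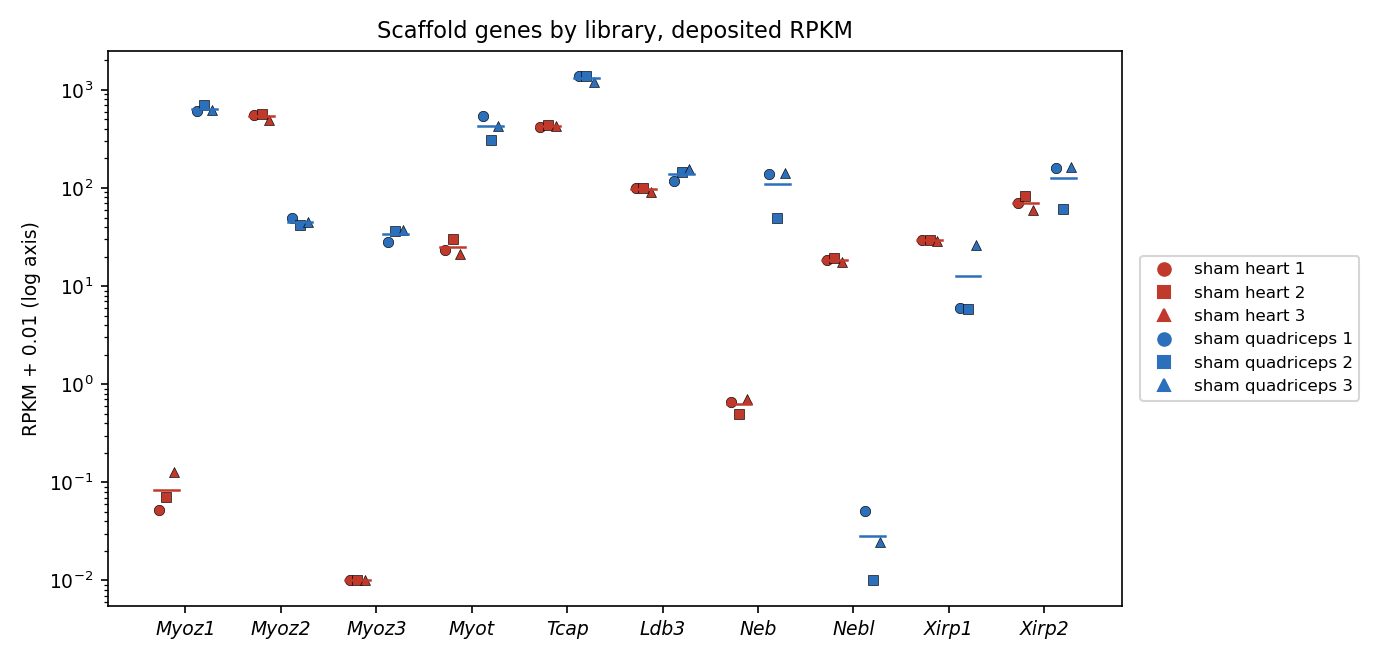
Deposited RPKM of the representative transcript of each gene, plus 0.01, on a log axis. Points are single libraries, 3 of sham heart (red) and 3 of sham quadriceps (blue), and lines are means. Myoz1 and Myoz3 lie near the floor in heart and Nebl does so in quadriceps, Neb is low but measured in heart, Xirp2 overlaps between the tissues on this scale, and for Xirp1 quadriceps library 3 stands apart from the other two.

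Of the other Z-disc proteins, myotilin, which cross-links actin and binds filamin and alpha-actinin, differed most in fold. Myot (NM_001033621) drew 1885, 2537 and 1548 reads in heart, against 39170, 22498 and 21834 reads in quadriceps. Its mean level was 42.02 ± 7.49 CPM in heart and 1205 ± 251 CPM in quadriceps, 28.7-fold higher (log2 fold change 4.84, SE 0.22, adjusted p = 9.84e-08, edgeR). Tcap (NM_011540), whose product caps the Z-disc end of titin, was abundant in both tissues. It drew 14774, 15910 and 13467 reads in heart, against 42441, 43135 and 26458 reads in quadriceps. The level was 313 ± 3.04 CPM against 1620 ± 162 CPM, 5.17-fold higher in quadriceps (log2 fold change 2.37, SE 0.13, adjusted p = 3.56e-07, edgeR), and the log2 fold change was 1.62, below 2, when library totals were used. For both genes the libraries of the tissues were fully apart.

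Ldb3, a PDZ and LIM domain protein that binds alpha-actinin, differed between the tissues in its level and in the exons its reads fell on. Of its 7 transcripts, NM_001039072 had the highest mean count over the 6 libraries, although NM_011918, with 19572, 20017 and 16007 counts, led in heart and NM_001039073, with 18614, 23718 and 17832, in quadriceps. NM_001039072 drew 18140, 18603 and 14771 reads in heart, against 18609, 23704 and 17830 reads in quadriceps. Scaled, this gave 365 ± 18.9 CPM in heart and 894 ± 182 CPM in quadriceps (SD, n = 3), with quadriceps library 1 the lowest of its group and still above heart. The fold was 2.45 (log2 fold change 1.29, SE 0.16, adjusted p = 8.87e-05, edgeR), and 0.53 on the log2 scale with library totals (adjusted p = 0.00647, edgeR). Over the 7 transcripts, which share most of their reads, the log2 fold change ran from 0.997 for NM_011918 to 1.80 for NM_001039075.

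Since a read on a shared exon is counted on every transcript that holds it, the difference between the counts of a pair of transcripts was taken for the reads on the differing exons where the listed lengths leave no other difference. NM_011918 is listed 133 bases longer than NM_001039072, and their differing exons, each taken 1 base short as in the table, also come to 133. The other pairs used met the same check. NM_001039074 did not, as it is listed 46 bases longer than NM_001039072 where the 15-base exon accounts for 14, and it was left out. It drew fewer reads than NM_001039072 although it holds 1 alternative exon more, with differences of -141, -231 and -163 reads in heart, against -278, -253 and -242 reads in quadriceps. In heart, the 359-base exon drew more such reads than the 23-base and 204-base exons together, by 1432, 1414 and 1236 counts. In quadriceps it drew fewer, with differences of -2288, -2955 and -2070 counts, although it is longer than the 227 bases of the others. As a share of the counts of NM_001039072, the difference was 7.95% ± 0.387 in heart and -12.1% ± 0.453 in quadriceps (SD, n = 3; exact two-sided permutation p = 0.1, the smallest that 3 against 3 libraries allow). The pair of short transcripts, NM_001039076 against NM_001039075, which differ by the 15-base exon as well, gave differences of 1432, 1417 and 1237 reads in heart, against -2295, -2976 and -2077 reads in quadriceps. These pairs share the same exons and reads, so the second is no independent measurement.

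The 186-base exon was used in heart and not detectably in quadriceps. NM_011918, which holds it, exceeded NM_001039071, which does not, by 116, 128 and 100 counts in heart and by 1, -1 and 1 counts in quadriceps. As a share of the counts of NM_001039072, this was 0.668% ± 0.0255 in heart and 0.0023% ± 0.0056 in quadriceps (SD, n = 3; exact permutation p = 0.1). The 15-base exon, too short to hold a whole read, was set against the 186-base exon in NM_001039073 and NM_001039072, at -121, -136 and -108 reads in heart, against 5, 14 and 2 reads in quadriceps. Adding the reads of the 186-base exon left -5, -8 and -8 reads in heart, against 6, 13 and 3 reads in quadriceps, for the 15-base exon alone. The long pair less the short pair gave 0, -3 and -1 reads in heart, against 7, 21 and 7 reads in quadriceps. Values below 0 cannot be reads on an exon, so differences of a few counts hold more than such reads, and no use of the 15-base exon was read from them. The heart counts of the 186-base exon are smaller than the differences of the transcript left out. The same exon gave nearly the same counts in the NM_001039073 pair, but both pairs count the same reads on it. The NM_001039073 pair is thus no independent measurement.

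Short Ldb3 transcripts, which end early and lack the exons of the LIM domains, had higher counts relative to long ones in quadriceps. With the 359-base exon, the ratio of short to long transcript (NM_001039076 over NM_001039071) was 0.502, 0.497 and 0.517 in heart and 0.628, 0.609 and 0.590 in quadriceps. With the 23-base, 204-base and 15-base exons (NM_001039075 over NM_001039073), it was 0.462, 0.459 and 0.477 in heart and 0.674, 0.658 and 0.638 in quadriceps. No library overlapped between tissues in either ratio (exact two-sided permutation p = 0.1 for each, n = 3 libraries per tissue). Both ratios include the shared 5′ exons, so they are not shares of molecules. Reads on the short and long 3′ parts are also counted in both ratios, so the second is no independent measurement. NM_001039076 over NM_001039072, which sets the short form of one kind against the long form of the other, was 0.542 ± 0.0130 in heart and 0.535 ± 0.0148 in quadriceps, within the spread between libraries.

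**Figure D4:**
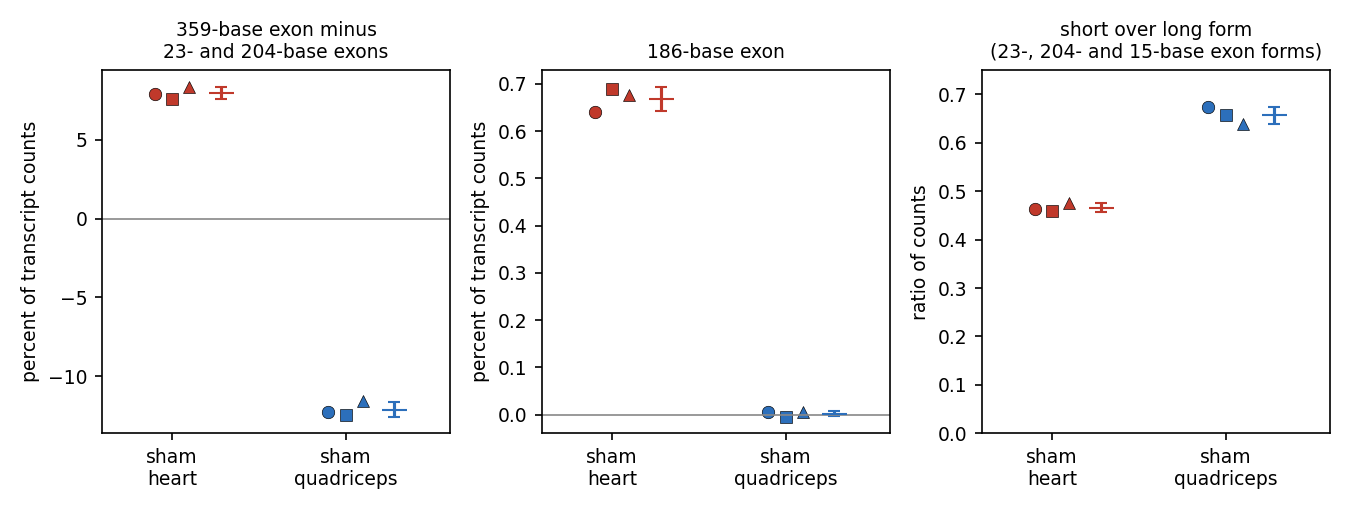
Ldb3 exon use by library, 3 of sham heart (red) and 3 of sham quadriceps (blue), with the mean and SD beside the points. The left and middle panels give the count differences as percent of the counts of NM_001039072, and the right panel gives the ratio of NM_001039075 to NM_001039073. Heart lies above 0 and quadriceps below it on the left, and quadriceps lies at about 0 in the middle.

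The nebulin relatives went in opposite directions, Neb higher in quadriceps and Nebl higher in heart. Neb (NM_010889), a gene of 157 exons in this transcript, drew 541, 419 and 518 reads in heart, against 102043, 36403 and 74633 reads in quadriceps. Its level was 10.6 ± 1.98 CPM in heart and 3164 ± 1441 CPM in quadriceps, 299-fold higher (log2 fold change 8.22, SE 0.45, adjusted p = 3.67e-07, edgeR). The spread among quadriceps libraries was a coefficient of variation of 45.5%, with library 2 the low one, and the groups were far apart all the same. Nebl (NM_028757) drew 2013, 2220 and 1749 reads in heart, against 4, 0 and 1 reads in quadriceps. That is 5982 counts against 5, 584-fold higher in heart after scaling (95% interval 250 to 1801, counting error only, adjusted p = 1.18e-08, edgeR). The size of this difference rests on few counts, 4 of them in quadriceps library 1. The log2 fold change was -9.12, and it came to -10.56 without that library and to -8.53 without library 2, which had 0. The listed Nebl transcript is the short form with 7 exons and 810 coding bases, which encodes a LIM domain, whereas the longest annotated form has 28 exons and 3042 coding bases. They share 453 of these coding bases. Outside the coding part the overlap is not known for the transcript as counted, since it is listed with 2971 bases and its GENCODE match has 5780, of which 5096 lie in the longest form. The counts can thus hold reads of either form on shared exons, and the exons found in the long form alone were not measured here.

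Of the Xin repeat genes, Xirp2 was higher in quadriceps and Xirp1 was not called. Xirp2 (NM_001083919) drew 30884, 38232 and 23584 reads in heart, against 61787, 23881 and 45290 reads in quadriceps, or 653 ± 105 CPM against 1943 ± 831 CPM. The fold was 2.98 (log2 fold change 1.57, SE 0.31, adjusted p = 0.00153, edgeR), with quadriceps library 2, at 998 CPM, nearest to the heart range of 549 to 760 CPM. The call was lost with library totals (log2 fold change 0.84, adjusted p = 0.0523, edgeR) and with limma on log2(RPKM + 0.5) (0.72, adjusted p = 0.107). Its second transcript, NM_001024618, had 0.999 of its counts in both tissues and adds nothing. Gm13601 on the opposite strand overlaps 168 exonic bases of Xirp2, and reads there cannot be assigned, since the strand setting of the counting is not given in the sources used here.

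Xirp1 (NM_011724) drew 6437, 6604 and 5542 reads in heart, against 1127, 1118 and 3571 reads in quadriceps. Heart was uniform at 132 ± 3.08 CPM, while quadriceps ran 41.4, 46.7 and 202 CPM, so that library 3 lay above all heart libraries and the other two below them. The log2 fold change was -0.45 (SE 0.51, adjusted p = 0.452, edgeR). Without quadriceps library 3 it was -1.55 (adjusted p = 2.31e-05, edgeR), without library 1 it was -0.08, and without library 2 it was -0.12. On log2(RPKM + 0.5) with limma, Xirp1 was lower in quadriceps with all libraries (-1.54, adjusted p = 0.0260). The share of Xirp1 in the summed RPKM of both Xin genes was 29.9%, 26.1% and 32.5% in heart and 3.60%, 8.76% and 13.9% in quadriceps, with no overlap. In the deposited RPKM, which carry no TMM factor, the overlap of the Xin genes was the other way round. Xirp1 ran from 28.7 to 29.8 RPKM in heart and from 5.81 to 26.2 RPKM in quadriceps, which did not overlap, whereas Xirp2 ran from 59.6 to 83.3 RPKM in heart and from 60.5 to 162 RPKM in quadriceps, which did.

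Other genes stood high in quadriceps library 3 as well, and those given here were picked after their values were seen. Ankrd1, a stress-responsive ankyrin repeat protein, had 14.9, 8.32 and 150 CPM in the quadriceps libraries. Csrp3, the muscle LIM protein, had 51.4, 34.4 and 188 CPM, and Flnc, filamin C, had 199, 235 and 496 CPM. Cryab, a small heat shock protein that protects desmin and filamin, had 471, 718 and 1429 CPM. The 4 macrophage markers, led by Csf1r and with none at 0 in either tissue, summed to 8.27, 8.40 and 16.95 CPM in quadriceps and 23.5, 23.5 and 21.6 CPM in heart. In quadriceps Cd68 had 40, 45 and 109 counts, Csf1r 112, 104 and 123, and Adgre1 60, 46 and 62. Cd14 was highest in quadriceps library 1, with 13, 6 and 6 counts. Cx3cr1, a macrophage receptor gene that overlaps the Xirp1 locus on the same strand but shares 0 exonic bases with it, had 5, 5 and 10 counts there. Whether any of these has a part in the Xirp1 values was not tested.

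For Neb and Xirp2, the longest of the transcripts at 22330 and 11958 listed bases, quadriceps library 2 was the low one. Its deviation from the mean of the quadriceps libraries was -0.92 for Neb and -0.85 for Xirp2 on the log2(CPM + 0.5) scale. Across all transcripts above 10 CPM, the median deviation of this library was 0.07 for those under 1500 bases, 0.06 from 1500 to 3000, 0.01 from 3000 to 6000, -0.08 from 6000 to 10000 and -0.19 for the 260 transcripts of 10000 bases or more. In the last class, libraries 1 and 3 both lay at 0.09. The deviations of Neb and Xirp2 were larger than this median, and the part of transcript length in them was not tested. Myot, a short transcript at 2195 listed bases, was lowest in library 2 as well, at -0.34. Without library 2 the log2 fold change was 8.56 for Neb and 1.89 for Xirp2, both still called. Ttn, a longer transcript at 101359 bases that was picked after its values were seen, had 7706, 7554 and 11985 CPM in the quadriceps libraries. Library 2 was the lowest there too, close to library 1.

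**Figure D5:**
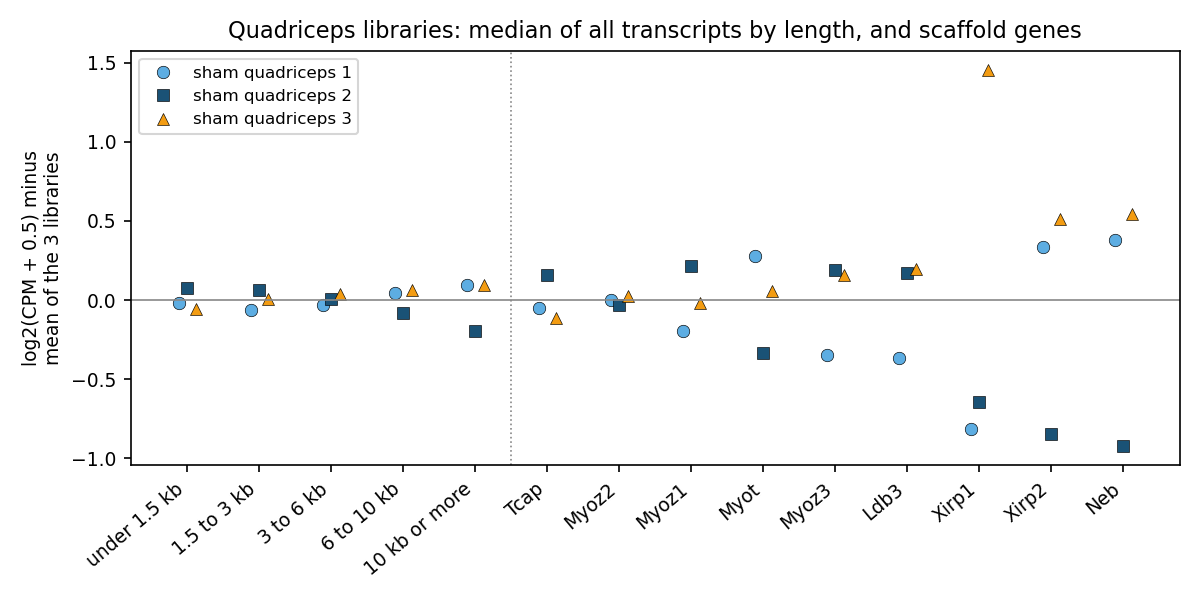
Deviation of each quadriceps library from the mean of the 3, in log2(CPM + 0.5). Left of the dotted line are medians over all transcripts above 10 CPM in 5 classes of listed length, and right of it 9 of the scaffold genes in order of length, Nebl with 5 counts being left out. Library 2 falls to -0.19 in the longest class and to -0.92 for Neb, and library 3 stands at 1.46 for Xirp1.

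Ordered by RPKM, which allows levels to be compared between genes, heart was led by Myoz2 (538 ± 36.7) and Tcap (431 ± 8.39), followed by Ldb3 (96.8 ± 4.85), Xirp2 (70.9 ± 11.9), Xirp1 (29.3 ± 0.559), Myot (24.9 ± 4.64) and Nebl (18.5 ± 0.865). Xirp1 and Myot overlapped in their ranges and could not be ordered. Neb lay at 0.614 ± 0.111 RPKM, Myoz1 at 0.0734 ± 0.0393 and Myoz3 at 0. In quadriceps the order was Tcap (1320 ± 105), Myoz1 (645 ± 50.9) and Myot (428 ± 118), then Ldb3 (140 ± 20.6), Xirp2 (127 ± 57.5) and Neb (111 ± 53.2), whose ranges overlapped. The place of Ldb3 depended on the transcript taken, since its short transcripts, which share reads with the others, ran from 195 to 247 RPKM (NM_001039076) and from 257 to 326 RPKM (NM_001039075) in quadriceps, above Xirp2 and Neb. Below them came Myoz2 (45.3 ± 3.65), Myoz3 (33.8 ± 4.64), Xirp1 (12.6 ± 11.7) and Nebl (0.0185 ± 0.0209), each apart from the next (SD, n = 3 throughout).

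Promoter sequence, from 250 bases before to 50 after the start in RefSeq (GRCm38.p6), was at hand for 4 of the genes (Ldb3, Myoz2, Nebl and Xirp2) in 8 windows. Both strands were searched for 4 motifs of muscle promoters, the MEF2 motif by name, the CArG box by name, the E-box CANNTG and the MCAT box CATTCC, whose matches can overlap. A MEF2 match lay in the windows of Myoz2, higher in heart, and Xirp2, higher in quadriceps, and in 3.19% of all 32851 windows. No MEF2 match lay in the windows of Nebl, also higher in heart, or of Ldb3, also higher in quadriceps. The 110 bases upstream of each RefSeq start are printed as an example of genes of opposite direction with the same motif, at chr3:123034988-123035097 on the minus strand for Myoz2 and chr2:67445892-67446001 on the plus strand for Xirp2, with the match in capitals.
Myoz2 promoter: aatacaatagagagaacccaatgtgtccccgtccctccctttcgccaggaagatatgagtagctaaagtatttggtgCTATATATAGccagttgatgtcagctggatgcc
Xirp2 promoter: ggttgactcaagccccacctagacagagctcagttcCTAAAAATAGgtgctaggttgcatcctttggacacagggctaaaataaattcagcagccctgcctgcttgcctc

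Counted from that start, the match begins at base -33 for Myoz2 and at base -74 for Xirp2. For Myoz2 the start in GENCODE lies further upstream, so that 28 of the 110 bases, with part of the match, fall within the gene as GENCODE gives it. A CArG match was found in the Ldb3 windows, which overlap and hold the same match, and in 1 of the 4 Nebl windows, and in 1.63% of all windows. The E-box was found in 72.3% of all windows and the MCAT box in 14.7%, the latter in 1 Nebl window. A match of letters describes the sequence and is no evidence of binding.

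The partner genes were read from 4 lists. Of 27 Z-disc partners, 15 were higher and 9 lower in quadriceps at an adjusted p under 0.05 (edgeR), with a median log2 fold change of 0.78 against 32.2% higher, 34.4% lower and a median of -0.06 over all tested transcripts. Actn3, the alpha-actinin of fast fibres, drew 3, 4 and 1 reads in heart, against 87745, 130518 and 90196 reads in quadriceps. Ankrd2, a titin-binding ankyrin repeat protein, drew 8, 3 and 9 reads in heart, against 2207, 2223 and 2181 reads in quadriceps. At the other end, Fhl2, a LIM-only protein of heart, was lower in quadriceps with a log2 fold change of -8.90 (SE 0.21, adjusted p = 2.22e-09, edgeR), and Ankrd1 with -5.11 (SE 0.996, adjusted p = 0.00143, edgeR). Actn2, the alpha-actinin to which most of the scaffold proteins bind, was also lower, at 515 ± 96.0 CPM against 1248 ± 42.4 CPM in heart (log2 fold change -1.28, SE 0.15).

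Of 20 genes of the thin filament and its nebulin partners, 13 were higher and 4 lower in quadriceps, with a median log2 fold change of 1.59, against the same 32.2%, 34.4% and -0.06. Those furthest up were the tropomyosins Tpm2 (log2 fold change 8.28, SE 0.28) and Tpm3 (7.95, SE 0.16), which coat the actin filament. Those furthest down were Actc1, cardiac actin (-5.20, SE 0.38), and Fhod3, a cardiac formin (-2.34, SE 0.16). Lmod2, the leiomodin of heart thin filaments, was lower too (-2.15, SE 0.13), whereas Lmod1 (1.78, SE 0.27) and Lmod3 (0.71, SE 0.16) were higher. Klhl40 and Klhl41, kelch proteins that bind and stabilise nebulin or leiomodin, were higher by 3.25 (SE 0.32) and 3.30 (SE 0.24), in the direction of Neb.

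Of 11 genes in the calcineurin list, 5 were higher and 3 lower, with a median of -0.05. These counts stand beside 32.2% higher and 34.4% lower among all tested transcripts and a median of -0.06 there. Beyond a log2 fold change of 2 either way, with an unadjusted p under 0.05, 3 were higher and 1 was lower, against 7.00% and 8.64%. No test of the list against other genes was made. Of the catalytic subunits, Ppp3cc was not called (-0.05, SE 0.11, adjusted p = 0.670, edgeR), whereas Ppp3ca (2.48, SE 0.10) and Ppp3cb (2.39, SE 0.11) and the regulatory subunit Ppp3r1 (2.06, SE 0.10) were higher in quadriceps on the log2 scale. The inhibitors Rcan2 (-2.07, SE 0.10) and Cabin1 (-1.26, SE 0.14) were lower, and Rcan1, a target of calcineurin signalling as well as an inhibitor, was not called (-0.22, SE 0.17, adjusted p = 0.284, edgeR). The Nfatc genes of the list were mixed. Nfatc1 (0.72, SE 0.10) and Nfatc3 (1.36, SE 0.10) were higher, Nfatc4 (-1.09, SE 0.25) was lower and Nfatc2 (-0.17, SE 0.13) was not called.

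Of 13 intercalated disc genes, where Xin proteins are found in heart, 0 were higher in quadriceps and 12 were lower (edgeR), with a median of -3.02, against 32.2%, 34.4% and -0.06 over all tested transcripts. At an unadjusted p under 0.05, and with DESeq2, 0 were higher as well. Dsp, desmoplakin, drew 62852, 64085 and 47415 reads in heart, against 1, 0 and 3 reads in quadriceps, and Dsg2, a desmosomal cadherin, had 1, 0 and 0 in quadriceps. The smallest differences were those of Ctnnb1, beta-catenin (-0.47, SE 0.10, adjusted p = 0.00185, edgeR), and Vcl, vinculin, which was not called (-0.30, SE 0.13, adjusted p = 0.0682, edgeR).

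Outside the 10 genes, the pattern over the 6 libraries nearest to each was sought by Euclidean distance in log2(RPKM + 0.5). For Myoz1 these were Myh1, a fast myosin heavy chain, and Actn3, at distances of 1.06 and 1.63. For Myoz2 they were Idh2 (0.831) and Lmod2 (0.846), for Tcap the muscle glycolytic enzymes Eno3 (0.486) and Pgam2 (0.865), and for Ldb3 Sqstm1 (0.269) and Rab12 (0.510). Neb lay nearest to Mrln and Jsrp1, both genes of sarcoplasmic reticulum proteins (1.61 and 1.69), and Nebl to the cardiac transcription factor Gata4 (0.318) and Kcng2 (0.377). Myoz3 lay nearest to Cacng6 (0.327) and Hoxc10 (0.451), Myot to Fhl1 (1.44) and Rtn2 (1.67), Xirp1 to Tnfrsf12a (1.27) and Usp28 (1.34), and Xirp2 to Cmya5 (0.450) and Fxr1 (0.816). Tnfrsf12a shared the high library, with 10.1, 12.0 and 27.4 CPM in the quadriceps libraries.

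In the genome (GRCm38), Myoz1 lies on chromosome 14 from 20649107 to 20656540, Ldb3 on chromosome 14 from 34526603 to 34588682, Myoz2 on chromosome 3 from 123006206 to 123035015, Tcap on chromosome 11 from 98383811 to 98384953 and Xirp1 on chromosome 9 from 120013755 to 120023598. Neb (52136647 to 52378474), Nebl (17343909 to 17731464) and Xirp2 (67446002 to 67526614) all lie on chromosome 2, and Myot (44334074 to 44355724) and Myoz3 (60573750 to 60591788) on chromosome 18. Tcap is the most compact, with 2 exons and 501 coding bases, and Neb holds 21456 coding bases. Of the genes that overlap the 10 in the annotation, Gm13601 over Xirp2 was alone in sharing exonic bases.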

How the data were processed

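RNA sequencing data of 9 mouse libraries were used as labelled, and the 3 sham heart and 3 sham quadriceps libraries were compared. The authors had trimmed single-end reads (Trim Galore), mapped them to mm10 (STAR) and assigned them to RefSeq transcripts (Rsubread). The deposited counts are raw counts per transcript. The deposited RPKM are these counts per listed length and library total, which was checked. The deposited fold changes, test scores and p-values of the authors' own comparisons were not used, nor were 9 columns of single libraries.

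A transcript was tested if 2 or more libraries held over 5 counts of it, with edgeR 4.0.16 (TMM, quasi-likelihood, Benjamini-Hochberg) in R 4.3.3, and the SE is the log2 fold change over the root of F. The text names all 10 genes and, from each partner list, the 2 genes furthest up and the 2 furthest down, and per gene the 2 nearest in pattern. Others were named after their values were seen. Members and lists were chosen with earlier results of these data known. Permutation tests were exact. Alternatives were DESeq2 1.42.0, library totals, other filters, limma 3.58.1 on log2 RPKM, 1 transcript per gene, a replicate block and leaving out each library. The procedure was run on simulated counts with a common dispersion, where 200 of 23866 transcripts were changed by a log2 fold change of 2. It recovered 100% of them, with 3.85% of calls false. The tissues compared here differ in far more transcripts, so these rates do not carry over to them. Replicate libraries differed by more than sampling noise (chi-square per degree of freedom at least 7.40). Exons, positions and transcript sequences came from GENCODE vM21. The sequences of some Ldb3 exons are not reported here. Intervals cover counting error only.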

Additional observations from a re-analysis of the deposited data

How the results depend on the processing

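Of the 10 genes, 8 kept direction and call under every one of the 15 alternatives that could test them. The exceptions were Xirp2, not called with library totals (0.84) or with limma on log2 RPKM (0.72 for each pseudocount), and Xirp1, called lower with limma (-1.59 to -1.48) and without quadriceps library 3 (-1.55). Leaving out each library in turn gave a log2 fold change of 1.34 to 1.89 for Xirp2, -1.55 to -0.08 for Xirp1 and -10.56 to -8.53 for Nebl. With at least 10 counts in every library, 7 genes could be tested, since Myoz1, Myoz3 and Nebl fell to the filter, and then 1 gene was lower, 3 were over a log2 fold change of 2 and 1 was under -2. Library totals and limma on RPKM left 4 genes over 2, as Tcap came to 1.62 and 1.61.

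The labels number the libraries of both tissues 1 to 3. Libraries of the same number did not deviate together (r of 0.02, -0.12 and -0.03), so the numbers were not taken as pairs. With the replicate block, 7 genes were higher and 2 lower as before, and Xirp1 came to -0.87 (adjusted p = 0.0556, edgeR). Ratios between Ldb3 transcripts were limited by 3 libraries per tissue, whose smallest exact p is 0.1.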
